A study of Homo sapiens with 9 samples.

Results

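The 9 RNA-seq libraries of the study carry a plate shape and a replicate number, and the 3 numbered 3 (flat 3, concave 3 and convex 3) are described here against the 6 numbered 1 and 2. They were chosen by their measured expression, after the levels of TDGF1, L1TD1, SIX3 and DLK1, among other genes, had been seen to differ from those of the other libraries. Every difference between the 3 and the 6 is therefore given as a description, with no p-value, and was taken within plate shape. All libraries came from wild-type H9, a standard line of human embryonic stem cells. All were grown for 72 h in pluripotency medium on Matrigel-coated silicone plates. All then had 48 h of neuroepithelial induction with SB431542 and LDN, inhibitors of the receptors for the TGF-beta and BMP families. For a last 24 h under the same inhibitors the plate was left flat (the control), bent concave or bent convex, with 3 libraries of each. The labels do not say what the number marks, such as a culture, a day or a library batch, and nothing in them ties a library to a separate culture. Such sources of the difference cannot be told apart here, and p-values given below rest on the scatter of these libraries alone, part or all of which may be technical.

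Pluripotent stem cells are a tight epithelium held by POU5F1, SOX2 and NANOG together with NODAL and FGF signals. When NODAL, activin and BMP signals are blocked, they lose POU5F1 and NANOG but keep SOX2, and exchange E-cadherin (CDH1) for N-cadherin (CDH2). They become neuroepithelium, which expresses PAX6, SIX3 and ZIC genes at its anterior end. The exchange comes with changes in the actin cytoskeleton, which is read out by 2 transcription systems, SRF with its MRTF partners and YAP with TEAD.

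Of 62710 genes, 23075 passed the filter on low counts, from libraries of 49420082 to 64763412 counts. Levels are CPM, counts scaled to each library's TMM-adjusted size, and differences are log2 values with their standard error (SE). Of the variance of log2 CPM, the contrast of number 3 took 43.3% and the contrast of number 2 with 1 took 10.1%. Plate shape took 21.5%, its interaction with number 3 took 14.2% and 11% was left over. Flat 2 stood apart among the 6. Its score on the first principal component was -78.1, against -28.2 to 0.543 in the other libraries numbered 1 and 2 and 34.7 to 61.1 in those numbered 3. Mitochondrial genes held 7.63% to 10.5% of the counts in the libraries numbered 3 and 5.7% to 8% in the others. In bulk RNA, fewer cells of a type and less RNA per cell cannot be told apart.

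The 4 genes by which the libraries were recognised stood outside the range of the 6 in each of the 3. Values of the libraries numbered 3 are given in the order flat, concave, convex, and those of the 6 by their lowest, median and highest value. TDGF1 (ENSG00000241186, chr3:46574534-46582463), the co-receptor for NODAL, stood at 123, 163 and 193 CPM against 1.11, 2.20 and 4.73, a log2 difference of 5.90 ± 0.345. L1TD1 (ENSG00000240563, chr1:62194831-62212328), an RNA-binding protein of pluripotent cells, stood at 478, 515 and 586 CPM against 131, 171 and 231, a log2 difference of 1.56 ± 0.165. Both were higher in all 3, and TDGF1 was low in the others. SIX3 (ENSG00000138083, chr2:44941898-44946077), a transcription factor of the anterior neural plate, stood at 42.2, 36.7 and 22.4 CPM against 111, 158 and 199.9, a log2 difference of -2.19 ± 0.276. DLK1 (ENSG00000185559, chr14:100725705-100738224), an imprinted membrane protein related to the Notch ligands, stood at 165, 123 and 51.7 CPM against 579.6, 722 and 1769, a log2 difference of -3.04 ± 0.323. SIX3 and DLK1 were lower in all 3, with no overlap, and convex 3 had the lowest value of both. Without flat 2, whose DLK1 level was far above the rest, the DLK1 difference was -2.85. Of genes that define the labelled cells, SOX2, shared by stem cells and neuroectoderm, stood at 578, 512 and 470.1 CPM in the libraries numbered 3, and PAX6, which defines neuroectoderm, at 1.10, 1.30 and 1.09 CPM.

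**Figure D1:**
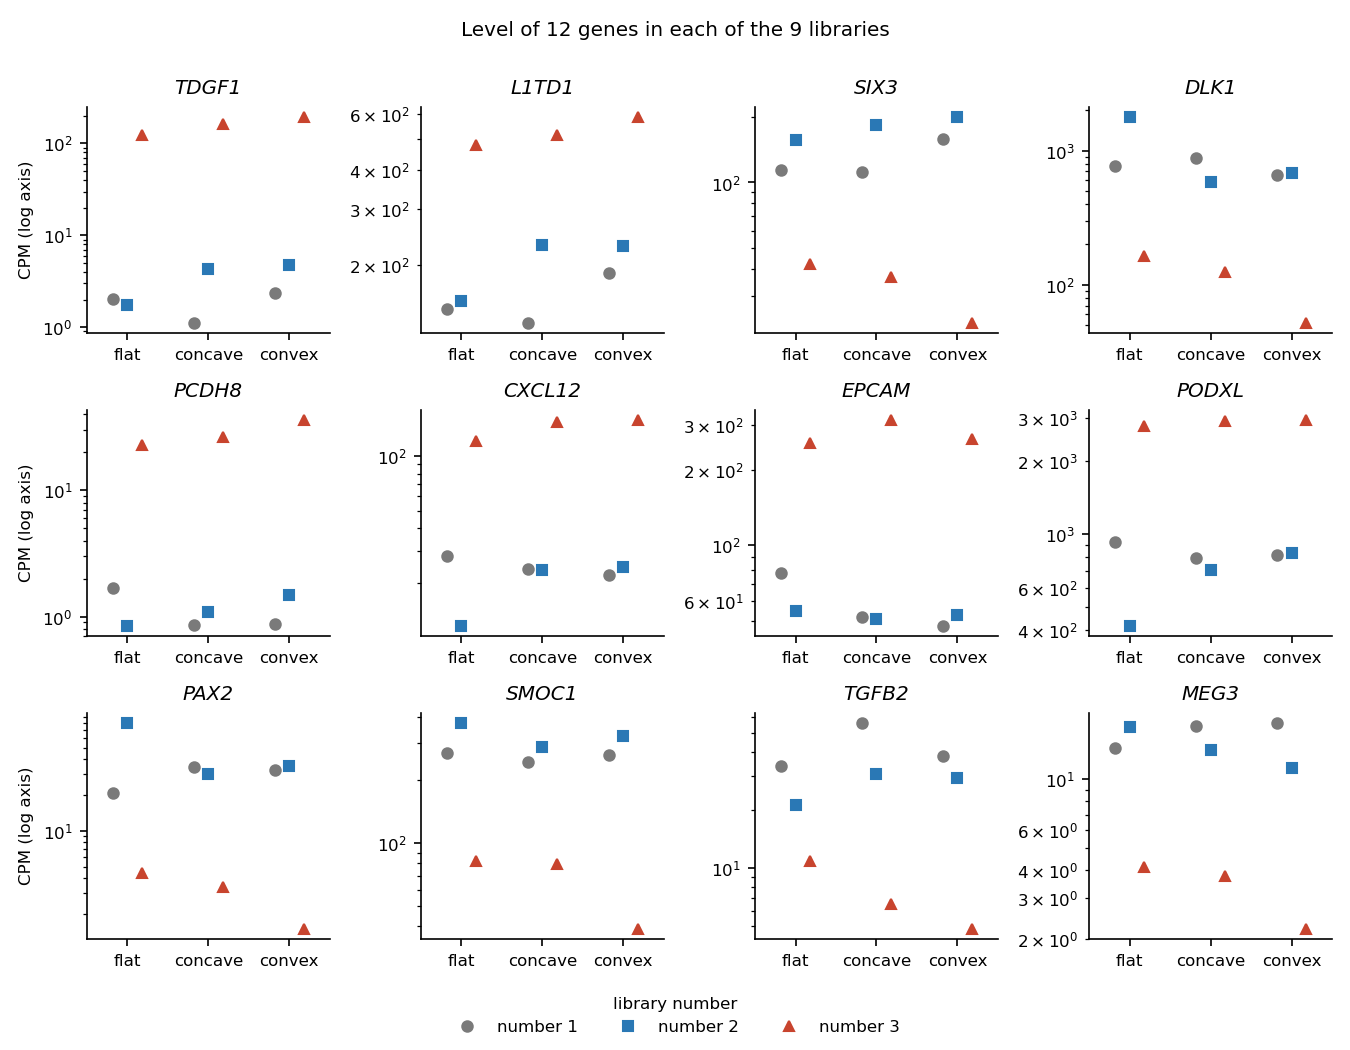
Level of 12 genes in each of the 9 libraries, in CPM on a log axis, with 1 panel per gene, plate shape along the x axis and the library number as colour and symbol. The libraries numbered 3 sit above the other 6 in the panels of TDGF1, L1TD1, PCDH8, CXCL12, EPCAM and PODXL, and below them in those of SIX3, DLK1, PAX2, SMOC1, TGFB2 and MEG3.

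With plate shape as a term, 1752 genes were higher and 2004 lower in the libraries numbered 3, 3756 of 23075 (16.3%: 7.59% higher, 8.68% lower). The call is an adjusted p under 0.05 by edgeR's quasi-likelihood test with Benjamini-Hochberg adjustment, used only to sort the genes, since the same contrast chose the libraries. Of the called genes, 804 were higher and 1089 lower by at least 2-fold, and 53 and 61 by at least 8-fold. The 3 libraries lay wholly above the 6 for 11.7% of all tested genes and wholly below them for 12.5%. Scaled by library size alone, the median of all genes moved from 0.000172 to -0.101 and the split to 1278 higher and 2662 lower. Convex 3 had the most extreme level of the 3 for 1043 of the genes called higher (59.5%) and 1186 of those called lower (59.2%). It had the most extreme level also for 11 of the 15 leading higher genes and 13 of the 15 leading lower ones, and flat 3 for 0 of both. Leading genes were admitted only if the 3 libraries did not overlap the 6, so their lack of overlap is not a result. Without convex 3, 1048 genes were called, and without flat 2, 5402. Leaving out flat 3, concave 3 or convex 1 gave 2331, 2383 and 2163. Counts of gene lists below are of members called higher and lower, set against 7.59% and 8.68% of all genes. In brackets they are repeated without convex 3 and without each other library that moved one of them by over 1.5 times and by at least 2 genes. The member with the most counts was called in 9 of the 46 lists and not called in 37, to be read beside the 16.3% called among all genes. COL1A1 was that member in several lists.

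**Figure D2:**
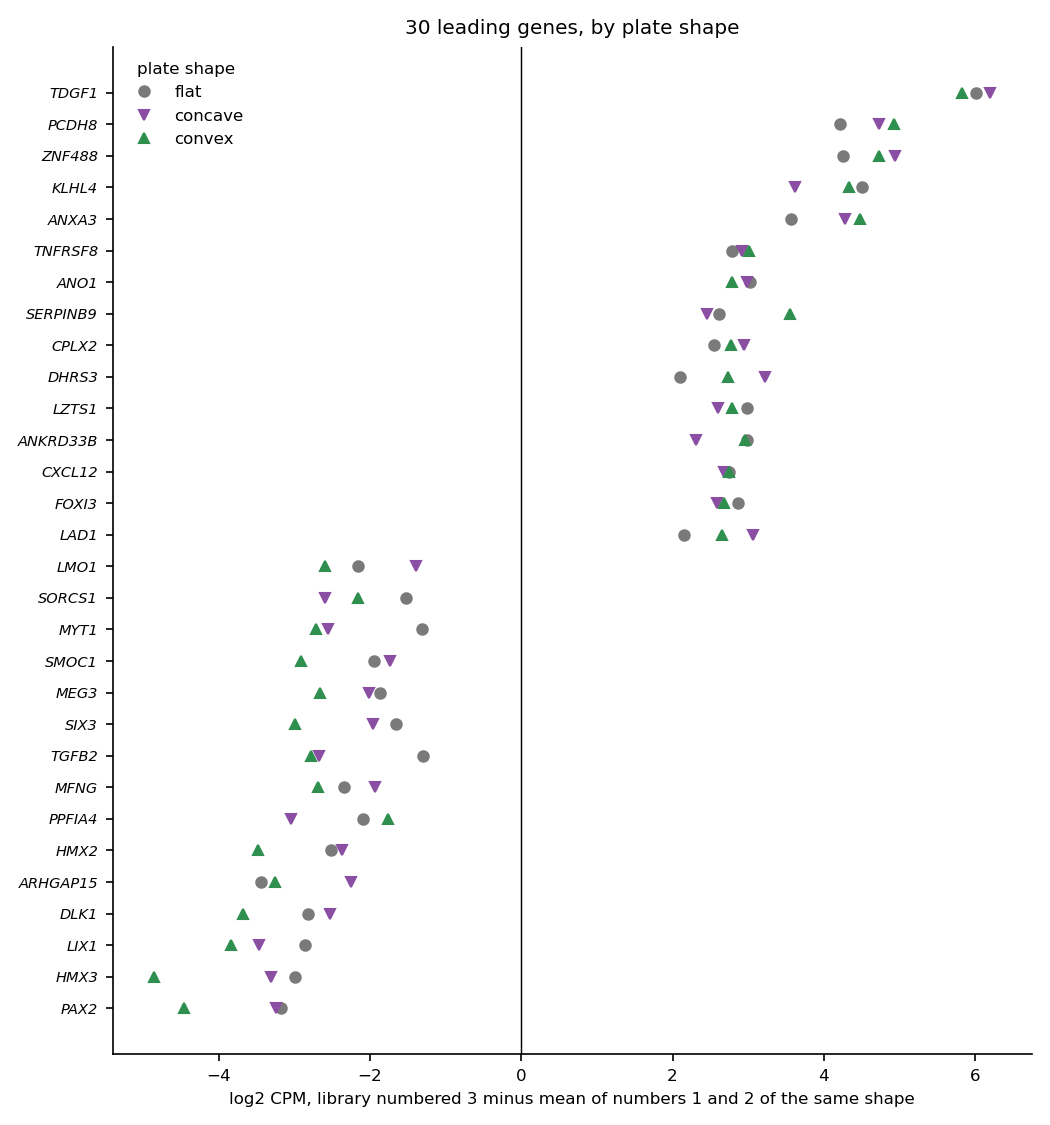
Log2 difference of the library numbered 3 from the mean of numbers 1 and 2 within each plate shape, for the 15 leading higher and 15 leading lower genes (1 point per shape, log2 CPM). The points of a gene all lie on the same side of 0. Leading genes were admitted only if the libraries numbered 3 did not overlap the others, so this shared side is not a result. Among the lower genes the widest difference is mostly that of the convex plate.

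The tests that the choice of libraries did not use were of number 2 against 1, of the difference between shapes in the number 3 contrast, and of plate shape itself. Number 2 against 1 gave 0 called genes of 23075 (0%) with edgeR, 1970 at an unadjusted p under 0.05 and a smallest adjusted p of 0.0511. DESeq2 called 154 genes in that comparison and limma voom 0. It shares its libraries with the number 3 contrast, so values of both are only set side by side. A count of 0 does not mean that numbers 1 and 2 were alike. In the early neuroectoderm list the median of number 2 against 1 was 0.37, beside -0.788 for number 3. Its mean level in number 1 lay between those of numbers 3 and 2 in each shape. The median was 0.441 for eye field and forebrain factors, 0.000883 for pluripotency factors and -0.0167 over all genes. TDGF1 differed by 0.92 (adjusted p = 0.537), L1TD1 by 0.40 (adjusted p = 0.562), SIX3 by 0.50 (adjusted p = 0.609) and DLK1 by 0.22 (adjusted p = 0.844) between number 2 and 1 (edgeR log2 differences with adjusted p). DUSP6, a phosphatase that turns off ERK, had the smallest p of the genes above in number 2 with at least 5 CPM, at 1.92 (adjusted p = 0.295). IGFBP5, a binding protein of insulin-like growth factors, was among those with the smallest p of the genes lower in number 2, at -1.33 (adjusted p = 0.295). The interaction of shape with number 3 gave 0 called genes (0%) with edgeR, 1134 at an unadjusted p under 0.05 and a smallest adjusted p of 0.326. DESeq2 called 30 and limma voom 0, and edgeR called 2420 without flat 1 and 1 without flat 2. Plate shape, with number 3 as a term, gave 0 called genes (0%), 1992 at an unadjusted p under 0.05 and a smallest adjusted p of 0.566, with 16 by DESeq2 and 0 by limma voom. The median SE of a number 3 difference was 0.155 for genes of at least 5 CPM.

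Of 24 tested pluripotency genes 13 were called higher and 1 lower, TDGF1 and L1TD1 among the 13. Without these 2 genes the list gave 11 higher and 1 lower of 22 (7 and 0 without convex 3), with a median log2 difference of 0.565 against 0.000172 over all genes. LIN28A, the RNA-binding protein that blocks let-7 and the member with the most counts, stood at 1759.5, 1793 and 1641 CPM against 1345, 1559 and 1751 and was not called (0.15), with overlap. ZFP42 (REX1), a zinc finger protein of undifferentiated cells, stood at 177, 175 and 178 CPM against 89.99, 107 and 116, and PRDM14, a repressor of differentiation, at 66.5, 64.2 and 78.5 CPM against 12.1, 33.2 and 44.5. POLR3G, a stem cell subunit of RNA polymerase III, stood at 41.3, 35.3 and 54.7 CPM against 6.67, 13.1 and 13.5. None of the 3 overlapped between the groups, and their log2 differences were 0.76, 1.30 and 1.87. NANOG, POU5F1 and DNMT3B were chosen after their values were seen. NANOG stood at 0.314, 0.186 and 0.475 CPM against 0, 0 and 0.0515, a level of few counts even where it was highest. POU5F1, whose reads can be shared with its pseudogenes, stood at 512, 495 and 481 CPM against 206, 244 and 366, and DNMT3B, the de novo DNA methyltransferase of the epiblast, at 1335, 1192 and 1302 CPM against 545, 900.2 and 976. SOX2, which both stem cells and neuroepithelium need, was the member called lower, at 578, 512 and 470.1 CPM against 739, 750.2 and 822 and a log2 difference of -0.56. The libraries numbered 3 were above the 6 for NANOG, POU5F1 and DNMT3B and below them for SOX2. Among genes linked to germ cells and the naive state, 6 of 13 tested were higher and 1 lower (3 higher without convex 3), with a median of 0.891 and a summed level of 257.5 to 267.9 CPM against 140.4 to 176.4. They included KLF4 at 1.15 and TFCP2L1 at 2.00, while DND1 and KLF17 had no count in any library and NANOS3 and DPPA3 were too low to test. DAZL, a germ cell RNA-binding protein, was the member called lower, at -1.53. ALPP and ALPG, the near-identical placental-type alkaline phosphatases whose reads may be split between them, differed by 2.47 and 1.80.

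Surface and glycan genes of stem cells gave 14 higher and 0 lower of 29, with a median of 0.558 (8 and 0 without convex 3). PODXL, the sialomucin that carries the TRA-1 epitopes, stood at 2776, 2910.3 and 2932 CPM against 416, 805 and 927, and KIT, the receptor for stem cell factor, at 28.1, 21.2 and 27.5 CPM against 6.90, 11.7 and 15.7. B3GALT5, which makes the core of the SSEA-3 and SSEA-4 glycans, stood at 78.97, 74.5 and 119 CPM against 17.8, 41.3 and 44.7, and CHST4, a sulfotransferase, at 4.40, 5.53 and 4.58 CPM against 0.737, 0.836 and 1.44. TNFRSF8 (CD30), a surface receptor of embryonal carcinoma and stem cells, was among the 15 leading genes at 21.1, 23.3 and 26.6 CPM against 1.9999, 3.19 and 4.55. All 5 were higher in each of the 3 libraries than in any of the 6. Of long noncoding RNAs tied to stem cells, 8 were higher and 4 lower of 19 (5 and 3 without convex 3). LNCPRESS1, a p53-repressed transcript of stem cells, stood at 10.7, 8.90 and 13.1 CPM against 0.467, 1.34 and 2.40 and LINC00678 at 6.67, 7.77 and 10.7 CPM against 0.372, 0.530 and 1.08. ESRG, the member with the most counts, stood at 689, 615 and 720.3 CPM against 271, 479 and 747 and was not called, with concave 1 at the top of that range.

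Signals that hold the pluripotent state were next. In the NODAL list, leaving out TDGF1, 6 members were higher and 3 lower of 29 (5 and 1 without convex 3, and 1 lower also without flat 3, concave 1, convex 1 or convex 2), with a median of 0.113, while the ligand antagonists LEFTY1 and LEFTY2, which NODAL induces, were too low to test. PMEPA1, a feedback inhibitor of SMAD signalling, differed by 2.29 and INHBA, the activin subunit, by 2.69. TGFB2, a ligand, was lower at 10.9, 6.48 and 4.82 CPM against 21.2, 32.2 and 55.98, a log2 difference of -2.24 that placed all 3 libraries below the 6. In the FGF and ERK list 11 were higher and 2 lower of 33, with a median of 0.475 (4 and 1 without convex 3, 6 and 2 without flat 3). FGFBP3, which carries FGFs in the matrix, stood at 109, 162 and 154 CPM against 28.8, 47.8 and 58.3 and ETV4, an ERK-induced ETS factor, at 24.005, 30.6 and 43.1 CPM against 6.40, 11.2 and 19.4. SPRY4, a feedback inhibitor of the pathway, differed by 1.81, and the receptor FGFR1, the member with the most counts, by 0.01 with no call. DUSP6, set out above for number 2 against 1, stood at 5.31, 8.32 and 11.1 CPM against 1.10, 2.40 and 8.68 and was not called. Other signalling lists had members on both sides. BMP genes gave 2 higher and 5 lower of 28 (1 and 1 without convex 3, 4 and 6 without flat 2), and WNT genes 8 and 6 of 48 (3 and 2 without convex 3, 5 and 4 without flat 3 or convex 1, 9 and 12 without flat 2). Hedgehog genes gave 4 and 2 of 16 (3 and 1 without convex 3, 4 and 4 without flat 2), and retinoid genes 5 and 3 of 24 (1 and 1 without convex 3, 3 and 1 without flat 3, 3 and 2 without concave 3 or convex 2, 4 and 1 without concave 1 or convex 1, 5 and 1 without flat 1). The medians of the BMP, WNT and retinoid lists changed sign between scalings or with a library left out, so no direction is given for them. BMP targets themselves did not go one way: ID1 differed by 1.45 and ID2 by -1.85. Of WNT genes, WNT4 differed by 1.42 and the secreted inhibitor WIF1 by 1.05, and SP5, a target, by -3.35.

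**Figure D3:**
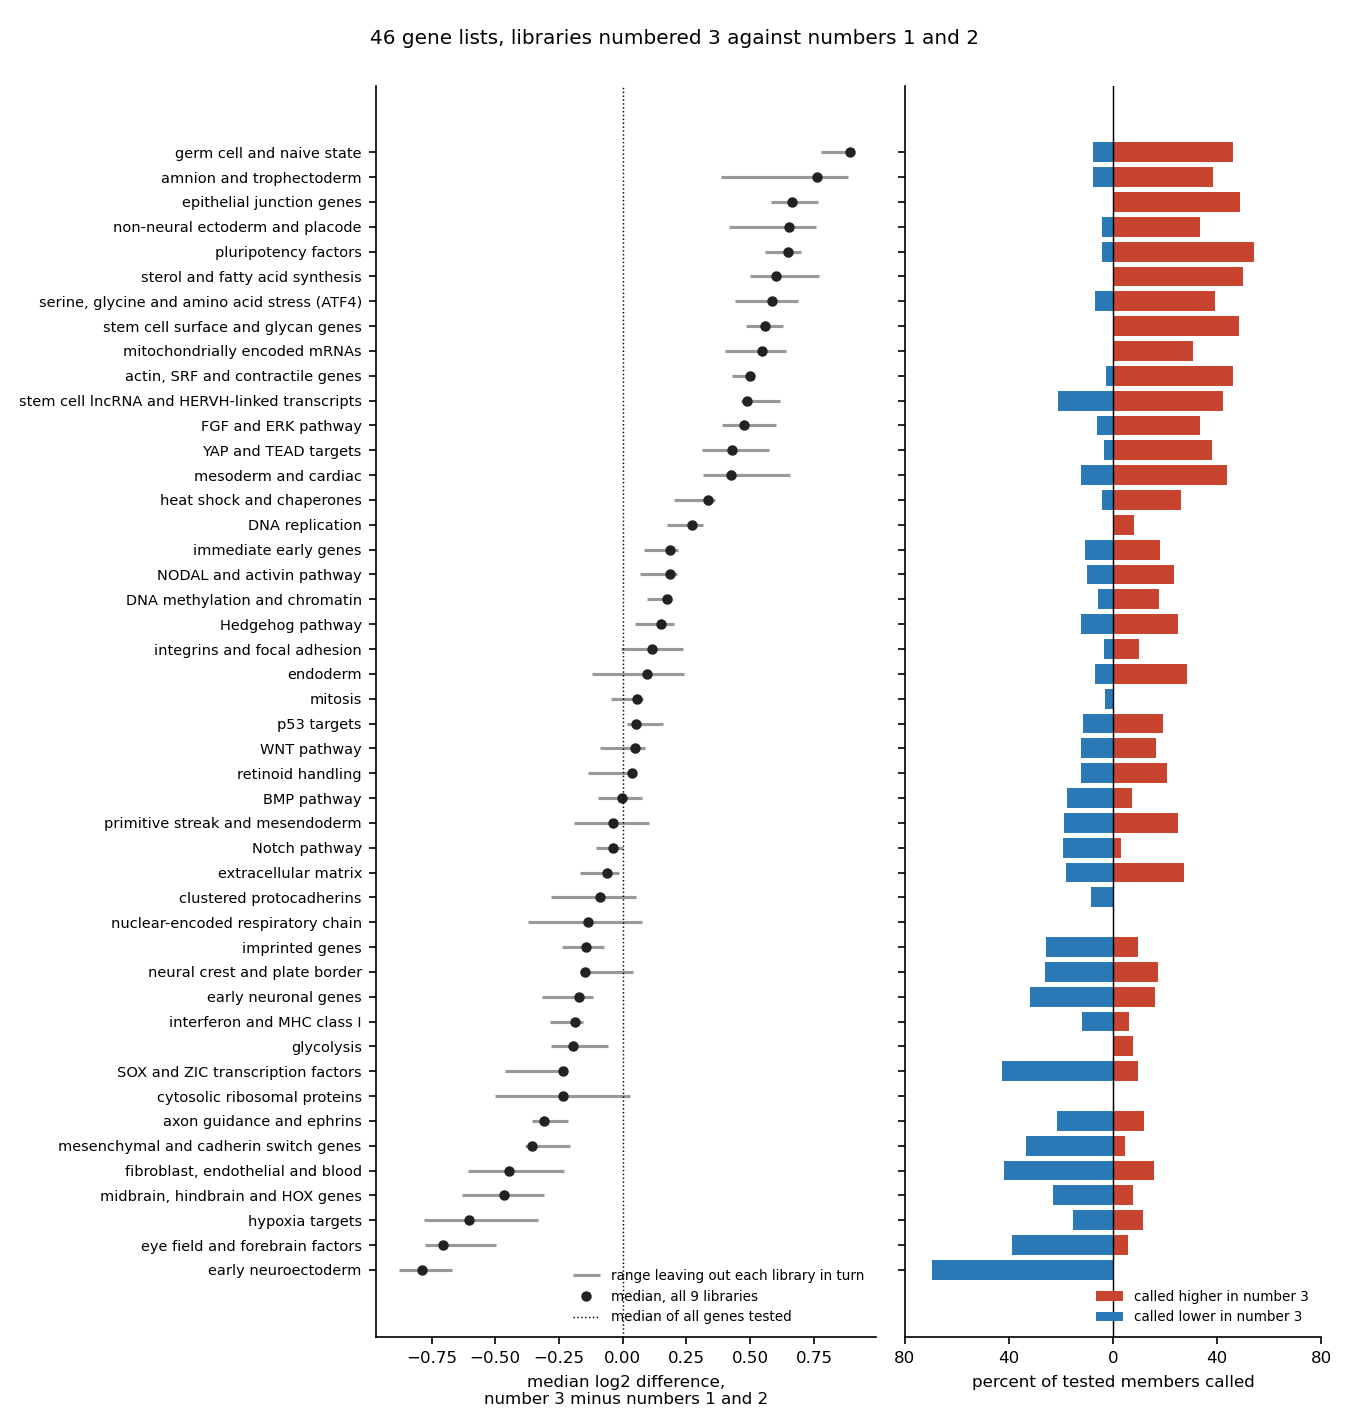
Left, median log2 difference of each of 46 gene lists (point) with its range when each library was left out in turn (bar) and the median of all genes (dotted line). Right, percentage of tested members called higher or lower in the libraries numbered 3; the epithelial, sterol and surface lists have no lower calls and the early neuroectoderm list no higher ones. The 4 recognised genes are kept in their lists.

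The epithelial junction list gave 20 higher and 0 lower of 41, with a median of 0.664 (12 and 0 without convex 3). EPCAM, the adhesion molecule of simple epithelia, stood at 256, 314 and 265 CPM against 47.6, 52.2 and 77.7, a log2 difference of 2.33 ± 0.150. CLDN7, a tight junction claudin, stood at 36.9, 50.4 and 38.6 CPM against 5.97, 9.19 and 14.3 and differed by 2.21. The splicing factors ESRP1 and ESRP2, which set epithelial exon choice, differed by 1.25 and 2.17, and GRHL2, a transcription factor of epithelial identity, by 2.10. OVOL1, a repressor of mesenchymal genes, differed by 3.19. CLDN6, another claudin and the member with the most counts, differed by 0.54 with no call. CDH1 and CDH3 were chosen after their values were seen. CDH1, E-cadherin, stood at 601, 626 and 640.4 CPM against 154, 223 and 323 (1.38) and CDH3, P-cadherin, at 393, 488 and 441 CPM against 85.95, 102 and 203 (1.90). Their counterpart CDH2, N-cadherin, stood at 118, 102 and 96.5 CPM against 135, 177 and 242 (-0.81). E-cadherin and P-cadherin were above the 6 in each of the 3 libraries and N-cadherin below them. In the mesenchymal list COL1A1, the member with the most counts, differed by 0.76 with no call. The summed level of that list was 2724 to 3051 CPM in the 3 libraries and 2324 to 3040 CPM in the 6. Of its tested members, 1 was higher and 7 lower of 21, with a median of -0.355. Leaving out a library changed these counts (0 and 0 without convex 3, 0 and 3 without concave 3, 1 and 3 without convex 2, 1 and 4 without flat 3 or concave 1). ZEB2 and ZEB1, repressors of E-cadherin, stood at 61.8, 43.96 and 39.3 CPM against 68.4, 129 and 137 and 4.82, 3.27 and 4.80 CPM against 6.25, 12.4 and 14.9. LAD1, which anchors epithelial cells to the basement membrane, and ANXA3 were also higher, by 2.57 and 3.94. So was KRT7, a keratin of simple epithelia, by 0.79, while KRT8, also of simple epithelia, differed by 0.44 with no call.

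Genes of the contractile cytoskeleton were also mostly on the higher side. In the actin and SRF list 18 were higher and 1 lower of 39, with a median of 0.499. Leaving out a library changed these counts (6 and 1 without convex 3, 9 and 1 without concave 3 or convex 1, 11 and 1 without concave 1, 21 and 3 without flat 2). ACTG2, a smooth muscle actin, stood at 3.68, 5.11 and 5.44 CPM against 0.482, 0.687 and 0.968, a log2 difference of 2.76 ± 0.244, and ACTA1, the skeletal muscle actin, at 6.15, 9.32 and 11.98 CPM against 0.842, 1.13 and 1.67, a log2 difference of 2.92 ± 0.245. TAGLN, an actin-binding protein of smooth muscle, stood at 39.2, 51.7 and 63.7 CPM against 8.72, 13.2 and 18.1. MYL7, a myosin light chain of the atrium, was chosen after its values were seen and stood at 0.803, 1.68 and 1.81 CPM against 0.0292, 0.120 and 0.248. All 4 were higher in each of the 3 libraries. ACTA2, another smooth muscle actin, was the member called lower, at 0.751, 1.12 and 1.60 CPM against 2.23, 2.82 and 3.44. Among members with many counts, FLNA, which crosslinks actin, stood at 2138, 2248 and 2514 CPM against 1155, 1558 and 1969 and VCL, which links actin to adhesions, at 682, 662 and 816 CPM against 199, 422 and 522. Flat 2 was far below the other libraries for VCL, and the difference was 0.83 with it and 0.67 without it. The YAP and TEAD list gave 11 higher and 1 lower of 29, with a median of 0.429 (4 and 1 without convex 3, 7 and 1 without convex 1 or convex 2). CCN2 and CCN1, matricellular proteins that YAP induces, stood at 26.2, 48.9 and 54.2 CPM against 4.64, 6.57 and 11.5 and 43.1, 71.5 and 73.2 CPM against 11.1, 14.1 and 21.2. AMOTL2, which binds YAP, differed by 1.21. For neither CCN gene did the groups overlap.

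Promoter windows are shown for 4 of these genes, since the members higher in the actin list include actins not typical of epithelium and SRF is known to bind the CArG box in such promoters. Each window is the 200 bases before the start site in RefSeq (GRCh38.p14), printed 5′ to 3′ on the gene's strand. Capitals mark a CArG box in the first 3 and GGAATG, the core bound by TEAD factors, in CCN2.
ACTA1 (chr1:229434095-229434294, minus strand): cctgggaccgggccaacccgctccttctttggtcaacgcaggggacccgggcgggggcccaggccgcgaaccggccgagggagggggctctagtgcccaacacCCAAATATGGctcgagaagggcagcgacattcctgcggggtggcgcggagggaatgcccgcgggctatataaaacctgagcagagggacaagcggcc
ACTG2 (chr2:73892808-73893007, plus strand): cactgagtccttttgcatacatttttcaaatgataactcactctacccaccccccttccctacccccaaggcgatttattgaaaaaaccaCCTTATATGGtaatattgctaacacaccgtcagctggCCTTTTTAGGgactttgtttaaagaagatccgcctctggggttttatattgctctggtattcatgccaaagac
MYL7 (chr7:44141333-44141532, minus strand): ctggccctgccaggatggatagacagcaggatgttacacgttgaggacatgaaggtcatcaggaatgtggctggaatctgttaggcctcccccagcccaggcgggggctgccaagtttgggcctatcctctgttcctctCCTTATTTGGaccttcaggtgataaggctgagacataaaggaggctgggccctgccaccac
CCN2 (chr6:131951373-131951572, minus strand): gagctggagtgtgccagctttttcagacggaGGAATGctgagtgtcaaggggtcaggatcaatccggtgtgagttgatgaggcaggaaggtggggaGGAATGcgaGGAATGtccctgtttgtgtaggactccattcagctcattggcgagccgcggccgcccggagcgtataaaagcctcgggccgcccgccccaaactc
The CArG boxes began at -97 in ACTA1, at -110 and -73 in ACTG2 and at -61 in MYL7, and GGAATG began at -169, -104 and -95 in CCN2, counted from the start site. Windows for CDH1, TDGF1, SIX3 and DLK1 were not used here. In windows of 250 bases before to 50 after a start (some genes have several), searched on both strands, 13 of the 36 listed actin genes with a window held a CArG box, against 1.15% of 19925 windows of all tested genes, 2.18% of those of genes called higher and 0.973% of those of genes called lower. GGAATG was in 11 of the 23 YAP genes with a window and in 11.8% of all windows. CAGGTG, an E-box bound by ZEB proteins, was in 16 of the 23 epithelial genes with a window and in 19.6% of all, and ATGCAAAT, the octamer, in 0 of the 19 pluripotency genes with one and in 1.43% of all. The list figures count genes and the percentages count single windows, so they are not on the same scale. Listed genes were counted whether tested or not, among them FOXF2 of the YAP list, which was too low to test. The actin and YAP lists were drawn up to hold SRF genes and TEAD targets, so their shares say nothing of number 3. A match of letters does not show that a factor was bound.

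The early neuroectoderm list gave 0 higher and 16 lower of 23, SIX3 and DLK1 among the 16. Without these 2 genes it gave 0 higher and 14 lower of 21 (0 and 3 without convex 3), with a median of -0.769. With the 2 genes kept, 11 were lower without concave 3 or convex 2, and 5 without convex 3. NES, the intermediate filament nestin of neural progenitors and the member with the most counts, stood at 839, 1007 and 899.95 CPM against 822, 898 and 1268 and was not called (-0.03), with overlap. PAX2 (ENSG00000075891, chr10:100735603-100829941), a factor of the midbrain-hindbrain boundary and the optic stalk, stood at 4.47, 3.35 and 1.496 CPM against 20.8, 33.3 and 80.1, a log2 difference of -3.70 ± 0.435 that was the widest of the list. ZIC1, a zinc finger factor of the neural plate, stood at 4.07, 3.11 and 2.32 CPM against 5.72, 9.97 and 14.5, and LIX1, an early neural gene, at 2.15, 1.59 and 1.39 CPM against 7.88, 20.01 and 31.7. PAX6, the neuroectoderm factor, stood at 1.10, 1.30 and 1.09 CPM against 1.68, 3.88 and 7.10. For these 4 the libraries numbered 3 lay below the 6. Flat 2 held the highest PAX2 value, 80.1 CPM, and without it the PAX2 difference was -3.34. In the list of midbrain, hindbrain and HOX genes, 2 were higher and 6 lower of 26 (0 and 5 without convex 3, 0 and 6 without flat 3, concave 3 or convex 1, 0 and 7 without flat 1, 4 and 6 without flat 2) and 4 HOX genes had no count in any library. HMX2 and HMX3, neighbouring homeobox genes on chromosome 10, stood at 3.14, 1.64 and 0.598 CPM against 4.45, 13.3 and 18.7 and 1.83, 0.849 and 0.194 CPM against 4.43, 11.9 and 15.4. LMX1A, a factor of the roof plate and midbrain, differed by -1.86. HMX2, HMX3 and PAX2 were below the 6 in each of the 3 libraries, and lowest in convex 3. Of eye field and forebrain factors, 1 was higher and 7 lower of 18 (1 and 2 without convex 3, 1 and 3 without concave 3, 1 and 4 without convex 2). Without SIX3 there were 1 and 6 of 17 (1 and 1 without convex 3), with a median of -0.639. LHX5, a forebrain factor, stood at 125, 117 and 88.6 CPM against 195, 208 and 287 and OTX1 at 0.559, 0.766 and 0.616 CPM against 1.09, 1.29 and 3.68, each with flat 2 at the top of its range. Of SOX and ZIC factors, 2 were higher and 9 lower of 21 (1 and 0 without convex 3). SOX5 differed by -1.77 and ZIC2 by -0.79, while SOX15 was higher, by 1.41.

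Genes of later neural steps were mixed. In the early neuronal list 4 were higher and 8 lower of 25 (0 and 1 without convex 3, 1 and 4 without convex 1, 2 and 3 without concave 3, 2 and 5 without convex 2, 3 and 5 without flat 3 or concave 1), with a summed level of 286.1 to 323.4 CPM in the 3 libraries and 315 to 423.1 in the 6. STMN2 and STMN4, microtubule regulators of growing axons, stood at 6.70, 4.18 and 2.09 CPM against 4.57, 9.99 and 25.9 and 0.140, 0.290 and 0.176 CPM against 0.859, 1.16 and 4.21, and MYT1, a neuronal zinc finger factor, at 3.25, 1.72 and 1.53 CPM against 7.68, 8.99 and 11.9. STMN4 and MYT1 were below the 6 in each of the 3 libraries, and STMN2 overlapped. MAP2, a microtubule protein of neurons and the member with the most counts, differed by -0.17 with no call. In the Notch list 1 was higher and 6 lower of 31 (0 and 3 without convex 3). DLL3, a divergent ligand that dampens the pathway, differed by -0.85, HES3, a repressor of the Hes family, by -1.34 and MFNG, which glycosylates Notch, by -2.35. Of axon guidance genes, 6 were higher and 11 lower of 51 (3 and 4 without convex 3), with a median of -0.308. The Slit receptors ROBO2 and ROBO3 stood at 1.94, 1.72 and 1.37 CPM against 4.15, 6.26 and 8.95 and 8.71, 8.32 and 6.60 CPM against 19.8, 21.9 and 39.3, and the ligand SLIT2 was on the other side, at 2.93, 3.11 and 5.75 CPM against 0.365, 0.834 and 1.09. Clustered protocadherins gave 0 higher and 4 lower of 47 (0 and 0 without convex 3, 0 and 2 without concave 3, 0 and 9 without flat 2), 8.51% of the list and thus no more than among all genes.

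**Figure D4:**
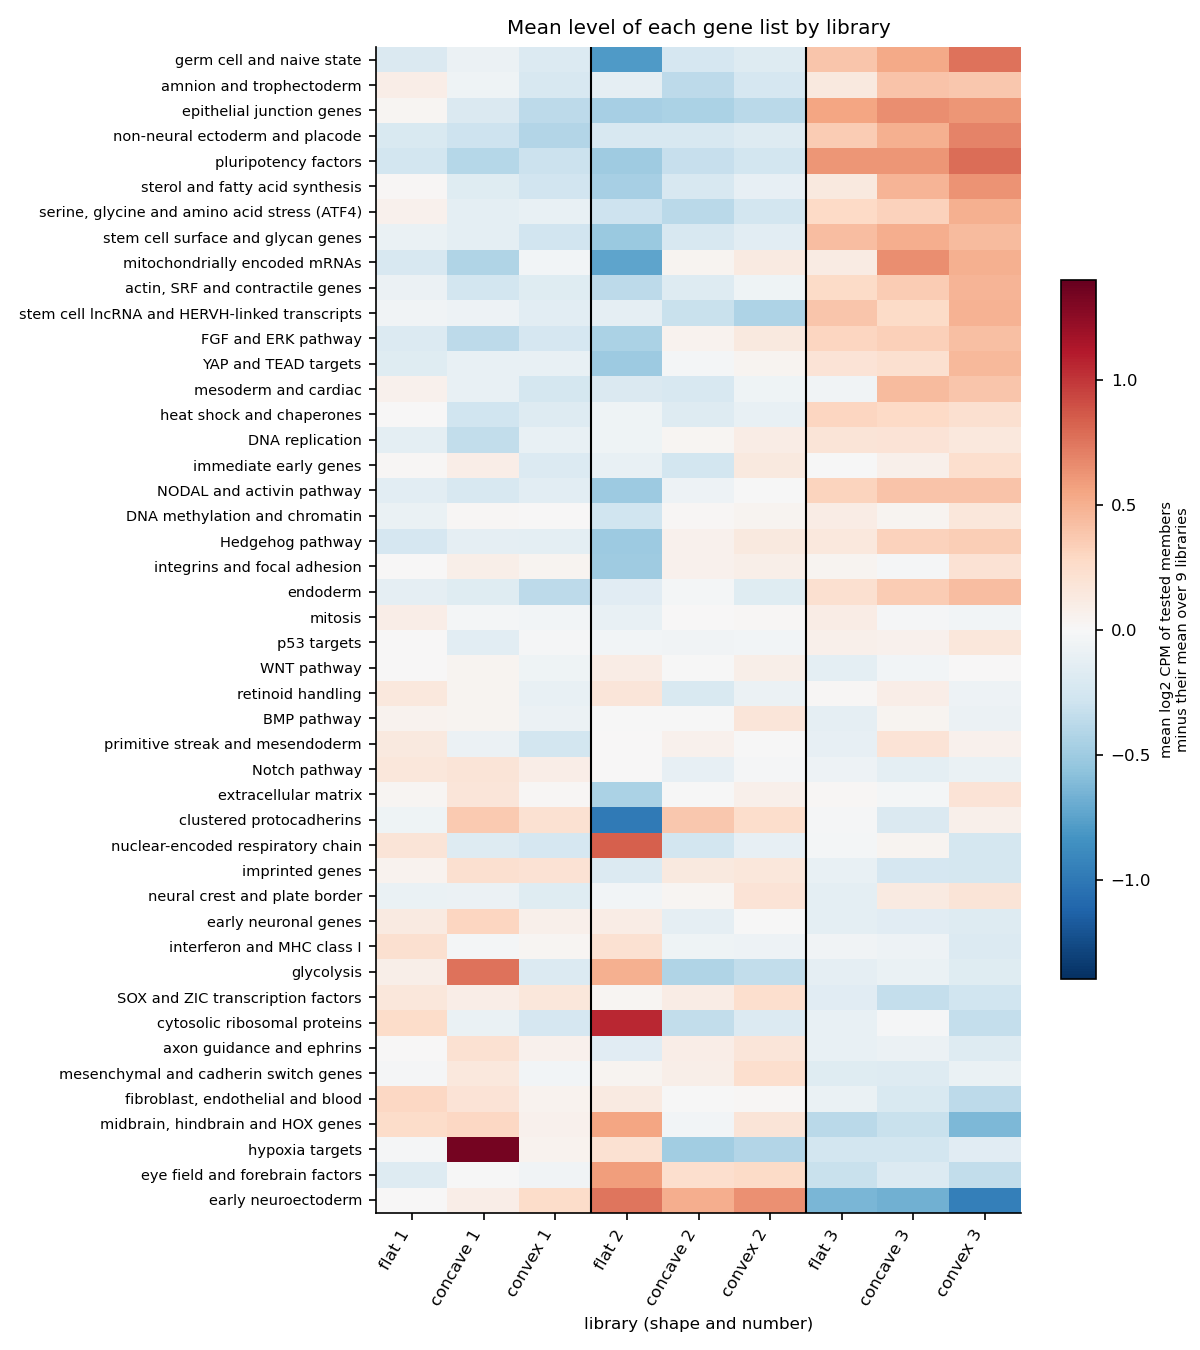
Mean log2 CPM of each gene list's tested members in each of the 9 libraries, minus their mean over the 9, as colour (red above 0, blue below), with lists in rows and libraries in columns. The libraries numbered 3 are red in the pluripotency, epithelial and sterol rows and blue in the early neuroectoderm row, while flat 2 stands apart in the ribosomal row and concave 1 in the hypoxia row.

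Marker lists of other cell types were read beside these groups, and their part in the results was not tested. Neural crest and plate border genes gave 4 higher and 6 lower of 23 (3 and 2 without convex 3, 4 and 3 without flat 3), at a summed 309.8 to 315.6 CPM in the 3 libraries and 363.9 to 396 in the 6. The list median, -0.148, became 0.0396 without convex 2, so no direction is given for it. The mean log2 level of its tested members, set against their mean over all libraries, was -0.137 in flat 3, 0.13 in concave 3 and 0.175 in convex 3. TFAP2A and TFAP2B were too low to test, and NGFR, a member called lower, differed by -1.15. Non-neural ectoderm and placode genes gave 8 higher and 1 lower of 24 (5 and 0 without convex 3), with a median of 0.653, at 1062 to 1172 CPM against 654.3 to 1062. KRT14 had no count in any library, and TP63, TFAP2A, KRT5 and DLX5 were too low to test. FOXI3, a placode factor, stood at 12.1, 13.3 and 20.1 CPM against 1.09, 2.58 and 3.56 and GATA2 at 1.92, 1.93 and 2.09 CPM against 0.721, 0.894 and 1.41. Both were low but above the 6 in each of the 3. Amnion and trophectoderm genes gave 5 higher and 1 lower of 13 (1 and 1 without convex 3, 2 and 2 without concave 3, 3 and 1 without flat 3 or convex 2), at 134.1 to 207.2 CPM against 90.91 to 110.5, with CGA, ERVFRD-1, VGLL1 and XAGE3 at 0 in all libraries and CDX2, ISL1 and HAND1 too low to test. VTCN1 stood at 2.53, 2.77 and 2.66 CPM against 1.39, 1.47 and 1.53, and IGFBP3, which other cells also make, at 148, 152 and 83.9 CPM against 60.7, 69.3 and 70.6.

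Primitive streak and mesendoderm genes gave 4 higher and 3 lower of 16 (2 and 2 without flat 3, concave 3 or convex 3, 2 and 3 without concave 1, concave 2, convex 1 or convex 2), at a summed 86 to 129.4 CPM in the 3 libraries and 92.78 to 156.6 in the 6. EOMES and GSC were too low to test. TBXT, a streak factor chosen after its values were seen, stood at 1.61, 1.57 and 1.16 CPM against 0.521, 0.731 and 0.986, and FOXA2 at 5.13, 5.90 and 10.5 CPM against 0.0589, 0.170 and 0.659. TBX6 and APLNR were lower, with log2 differences of -1.69 and -1.37. Endoderm genes gave 4 higher and 1 lower of 14 (2 and 0 without convex 3, 2 and 1 without flat 3), at 62.53 to 68.46 CPM against 37.4 to 46.98, with TTR at 0 in all libraries and SOX17, GATA4 and GATA6 too low to test. KIT, which stem cells share, and FOXA3 gave most of that sum. Mesoderm and cardiac genes gave 7 higher and 2 lower of 16 (4 and 1 without convex 3), at 130.6 to 153.8 CPM against 74 to 111.7. KDR, the VEGF receptor that stem cells also carry, stood at 79.5, 69.95 and 92.02 CPM against 17.3, 35.3 and 38.4 and ACTC1, the cardiac actin, at 14.04, 17.9 and 20.9 CPM against 6.92, 7.43 and 8.47, while HAND2, NKX2-5 and TBX5 were too low to test. Fibroblast, endothelial and blood genes gave 3 higher and 8 lower of 19 (0 and 3 without convex 3, 0 and 6 without convex 1, 0 and 7 without flat 3, 1 and 5 without concave 1, 1 and 6 without convex 2, 1 and 7 without concave 2 or concave 3), at 1462 to 1857 CPM against 1099 to 1806, with HBE1 at 0 in all libraries and PTPRC too low to test. The endothelial genes VWF, CDH5 and PECAM1 stood at 26.2, 22.7 and 16.1 CPM against 62.2, 67.6 and 78.9, 0.873, 0.725 and 0.563 CPM against 2.77, 2.94 and 3.14 and 0.646, 0.497 and 0.370 CPM against 0.945, 1.58 and 1.83. All 3 were lower in number 3, although VWF was read in every library. Of the receptors for platelet-derived growth factor, PDGFRB was lower, at 17.1, 15.6 and 13.6 CPM against 23.7, 37.9 and 40.6, and PDGFRA was higher, at 3.89, 3.62 and 3.94 CPM against 1.69, 2.10 and 2.46.

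Matrix genes went both ways. In the extracellular matrix list 12 were higher and 8 lower of 44 (4 and 3 without convex 3, 6 and 8 without flat 3, 7 and 6 without convex 1 or convex 2, 8 and 5 without concave 3, 11 and 15 without flat 2). LAMB3, a chain of the laminin under stratified epithelia, stood at 3.54, 4.06 and 4.58 CPM against 0.598, 0.842 and 1.68 and THBS1, thrombospondin, at 33.1, 38.5 and 58.2 CPM against 5.39, 11.6 and 17.2. VCAN, a large proteoglycan, stood at 241, 194 and 415 CPM against 35.95, 92.6 and 129. SPON1, a matrix protein of the floor plate, was lower, at 12.4, 8.26 and 8.57 CPM against 23.5, 30.4 and 39.7. The first 3 were above the 6 and SPON1 below. Integrins and focal adhesion genes gave 3 higher and 1 lower of 30 (0 and 0 without convex 3, 1 and 1 without concave 1, concave 3 or convex 1, 5 and 1 without flat 1, 6 and 1 without flat 2), at 13.3% called a share below that of all genes.

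Imprinted genes gave 3 higher and 8 lower of 31 (0 and 6 without convex 3, 1 and 7 without concave 1 or convex 1, 1 and 8 without concave 2), and 3 and 7 of 30 without DLK1 (0 and 5 without convex 3). DLK1 and RTL1, read from the paternal copy of an imprinted region on chromosome 14, and MEG3 and MEG8, noncoding RNAs read from its maternal copy, were all among the lower ones. RTL1, a retrotransposon-derived gene, stood at 0.978, 0.663 and 0.211 CPM against 3.91, 4.97 and 9.73, a log2 difference of -3.27 ± 0.389, and MEG3 at 4.14, 3.75 and 2.20 CPM against 11.2, 15.3 and 17.6, a log2 difference of -2.19 ± 0.232. MEG8, chosen after its values were seen, stood at 0.384, 0.166 and 0.158 CPM against 0.728, 0.925 and 1.37, and MEG9, chosen likewise, at 0.751, 0.890 and 0.581 CPM against 0.905, 1.47 and 2.02 with no call. DLK1, RTL1, MEG3 and MEG8 had no overlap between the groups. Flat 2 was at the top of the range for DLK1 and RTL1, and without it RTL1 differed by -3.09. Libraries were strand-specific per the labels but the strand setting of the counting is not given in the sources used here, so RTL1 reads cannot be told apart from those of its antisense transcript. GNAS, the imprinted gene with the most counts, differed by -0.12 with no call, and TFPI2, an imprinted protease inhibitor, was higher by 1.25.

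Lipid and amino acid synthesis were the metabolic groups with the most calls. Sterol and fatty acid genes gave 15 higher and 0 lower of 30, with a median of 0.603. Leaving out a library changed these counts (2 and 0 without convex 3, 7 and 0 without concave 3 or convex 1). SCD, which desaturates fatty acids, stood at 2331, 2656 and 2907 CPM against 1317, 1884 and 2178 and DHCR7, the last enzyme of cholesterol synthesis, at 296, 438 and 449 CPM against 158, 213 and 254. MVD, also of the cholesterol pathway, differed by 1.04. SCD and DHCR7 were above the 6 in each of the 3 libraries. The ATF4 list, amino acid supply under stress, gave 11 higher and 2 lower of 28, with a median of 0.586 (4 and 0 without convex 3, 6 and 1 without concave 3). CHAC1, which degrades glutathione, differed by 1.68, and the transporters SLC7A11 and SLC7A5 by 1.22 and 1.41. Hypoxia targets gave 3 higher and 4 lower of 26 (0 and 0 without convex 3, 1 and 1 without flat 3, 2 and 1 without convex 1, 2 and 2 without flat 2, 3 and 0 without concave 3, 3 and 8 without concave 2), with a median of -0.603, and the median of number 2 against 1 was nearly as low at -0.584. Their summed level was 1178 to 1228 CPM in the 3 libraries and ran from 1109 to 3491 in the 6. DDIT4, an mTOR inhibitor, stood at 118, 93.04 and 92.04 CPM against 132, 353 and 648 and the glucose transporter SLC2A1 at 253, 291 and 260.1 CPM against 198, 268 and 794, the latter with no call and with concave 1 at the top. ADM, a vasoactive peptide, was on the other side, at 10.999, 15.6 and 25.9 CPM against 0.429, 2.75 and 15.3, with overlap. Glycolysis gave 2 higher and 0 lower of 26 (1 and 0 without convex 3, 2 and 2 without concave 2), 7.69% called against 16.3% of all genes.

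Growth, stress and chromatin groups were read last. DNA replication genes gave 3 higher and 0 lower of 37 (0 and 0 without convex 3, 1 and 0 without flat 3, concave 3 or convex 1, 7 and 0 without flat 2), with a median of 0.271, and mitosis genes 0 and 1 of 33 (0 and 0 without convex 3, 0 and 3 without flat 2). At 8.11% and 3.03% called, both lay below the 16.3% of all genes. The p53 targets gave 5 and 3 of 26 (3 and 1 without convex 3). The medians of the mitosis and p53 lists changed sign when libraries were scaled by size alone. RRM2, a subunit of ribonucleotide reductase, differed by 0.76 and CCNE1, the G1/S cyclin, by 0.46. MYC, a growth factor-induced gene, stood at 15.5, 23.4 and 26.6 CPM against 5.91, 8.58 and 13.4. Heat shock and chaperone genes gave 6 higher and 1 lower of 23 (2 and 0 without convex 3, 3 and 1 without concave 3, 10 and 1 without flat 2), with a median of 0.335, among them HSPA8 at 0.76 and HSPA4L at 1.26. Interferon and MHC class I genes gave 2 higher and 4 lower of 33 (1 and 1 without convex 1 or convex 3, 1 and 2 without concave 3 or convex 2, 2 and 2 without flat 1 or concave 1, 3 and 1 without flat 3), at 18.2% called close to the share of all genes. Chromatin genes gave 6 higher and 2 lower of 34 (2 and 1 without convex 3), with KDM6A, a histone H3K27 demethylase, at 1.09 and its relative KDM6B at -1.08. JARID2, a partner of the Polycomb complex, stood at 403, 373 and 479.6 CPM against 101, 195 and 203. KDM6A, KDM6B and JARID2 did not share a direction. Cytosolic ribosomal protein genes gave 0 called of 38, with a median of -0.236 that became 0.0269 without flat 3 and -0.0677 without flat 2. Mitochondrially encoded mRNAs gave 4 higher and 0 lower of 13, with a median of 0.546 (1 and 0 without concave 3 or convex 3, 2 and 0 without concave 1 or convex 1, 10 and 0 without flat 2). MT-ND4 stood at 8324, 12543 and 11251 CPM against 5054, 7698 and 8425, with overlap, beside the higher share of mitochondrial counts in concave 3 and convex 3.

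Several of the 15 leading genes per direction were not described with the gene lists above. PCDH8, a protocadherin of early mesoderm and brain, stood at 22.9, 26.6 and 35.8 CPM against 0.842, 0.986 and 1.70, a log2 difference of 4.63 ± 0.245. KLHL4, a kelch protein, stood at 13.3, 10.8 and 22.5 CPM against 0.421, 0.767 and 1.80 and ZNF488, a zinc finger protein, at 16.04, 18.7 and 25.2 CPM against 0.453, 0.810 and 1.39. CXCL12, the chemokine that attracts CXCR4-positive cells, stood at 121, 153 and 157 CPM against 11.6, 23.9 and 28.4, and SERPINB9, the granzyme B inhibitor, at 11.5, 13.7 and 22.4 CPM against 1.16, 1.98 and 3.12. ANO1, a calcium-activated chloride channel, differed by 2.86, CPLX2, a synaptic fusion protein, by 2.71 and LZTS1 by 2.70. All of these were higher in each of the 3 libraries than in any of the 6, which their selection as leading genes required. On the lower side, ARHGAP15, a Rac GTPase-activating protein, stood at 1.03, 1.06 and 0.581 CPM against 4.14, 6.16 and 15.2, a log2 difference of -3.04 ± 0.323. PPFIA4, a liprin of synapses, stood at 7.94, 5.96 and 6.93 CPM against 14.2, 31.6 and 146, with concave 1 far above the rest, and LMO1, a LIM-only transcription cofactor, at 34.1, 32.4 and 12.8 CPM against 63.2, 97.3 and 199. SORCS1, a neuronal sorting receptor, differed by -2.08 and SMOC1, a matrix protein of eye and limb development, by -2.17. For none of these 5 did the 3 libraries overlap the 6, again a condition of their selection.

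Of the genes named above, those called were also called in each of 16 further fits (other scalings, filters and tools, the replicate block, and each library left out in turn), with the exceptions given here. Without convex 3, the call alone was lost and the sign kept by ALPG (1.52), ALPP (2.15), AMOTL2 (1.00), DHCR7 (0.79), ETV4 (1.27), KDM6A (1.05), KLF4 (0.93), KRT7 (0.75), MYC (1.16), PDGFRA (0.79), PECAM1 (-1.39), SLC7A11 (1.18), SOX2 (-0.48), SOX5 (-1.76), STMN4 (-2.97), TFPI2 (1.19), ZEB1 (-1.33), ZEB2 (-1.01), ZIC1 (-1.43) and ZIC2 (-0.63), where the value in brackets is the log2 difference without that library. MYL7 (2.91 to 3.94) was not called under the filter of 1 CPM in 3 libraries, which left it out. CDH2 (-1.06 to -0.67), HSPA8 (0.60 to 0.84), KDM6B (-1.21 to -0.90), PAX6 (-2.05 to -1.65) and VTCN1 (0.76 to 0.89) were not called without concave 3 or convex 3. HSPA4L (0.99 to 1.58), KIT (0.93 to 1.30) and RRM2 (0.66 to 0.85) were not called without flat 3 or convex 3. NANOG was not called without convex 3, nor under the filter of 1 CPM in 3 libraries, which left it out. MVD (0.72 to 1.44) was not called without concave 3, convex 1 or convex 3. SPRY4 (1.55 to 2.15) was not called without flat 2, flat 3 or convex 3. SP5 (-4.15 to -2.59) was not called without flat 3, concave 3 or convex 3, nor with limma voom. The calls of WIF1 (0.80 to 1.28), ADM (1.94 to 3.09), DDIT4 (-2.10 to -1.28), DLL3 (-0.97 to -0.75), VCL (0.64 to 0.97), FLNA (0.45 to 0.58), GATA2 (0.80 to 1.13), PPFIA4 (-2.90 to -1.92), DNMT3B (0.40 to 0.68), OTX1 (-1.58 to -0.86), MT-ND4 (0.40 to 0.64), SCD (0.41 to 0.59), STMN2 (-1.85 to -1.26) and CCNE1 (0.24 to 0.54) each rested on 4 or more single libraries, convex 3 among them. That of TBXT (0.70 to 1.36) was kept without flat 2 or convex 3 and lost without each of the other 7. CCNE1, DNMT3B, FLNA, MT-ND4, SCD and VCL also lost it under library size scaling, and CCNE1, PPFIA4 and STMN2 with limma voom. Ranges in brackets are log2 differences over all these fits but DESeq2, limma voom and the CPM filter.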

How the data were processed

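Polyadenylated RNA was sequenced in 9 libraries, 3 per plate shape. The deposited values are raw counts per gene in 1 table of the whole series, which the authors made on GRCh38 using HISAT2 and featureCounts, per the submitters' processing notes. Their versions, the annotation and the strand setting of the counting were not given in the sources used here. Columns were matched to libraries by plate shape and replicate number, and 0 other per-sample columns were present. Positions, gene types and transcript lengths are from GENCODE v29.

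Tests used edgeR 4.0.16 in R 4.3.3 (filterByExpr, TMM, robust quasi-likelihood fit, Benjamini-Hochberg adjustment over all 23075 genes tested, call at an adjusted p under 0.05, two-sided). Number 3 was set against 1 and 2 with plate shape as a term. Number 2 against 1, shape by number 3, and shape with a term for number 3 were fitted to all 9 libraries. All 4 comparisons were adjusted separately. The scripts were tested on simulated data. Library totals ran from 49420082 to 64763412 counts, and the common biological coefficient of variation was 0.231.

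The libraries, the 46 gene lists and the alternatives were chosen with earlier results of these data known. Of 1303 list symbols, 1 was not matched (MIR9-2HG). Named genes are TDGF1, L1TD1, SIX3 and DLK1, up to 15 called genes per direction with the largest log2 difference, a mean of 5 CPM or more and no overlap, up to 4 called members per list with at least 1 CPM, and each list's member with the highest mean CPM. For the other comparisons they are those with the smallest p and at least 5 CPM: up to 5 per direction for number 2 against 1 and up to 3 for each of the others. Not every gene so chosen is reported here.

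Same-numbered libraries were checked for pairing by correlating deviations from the shape means across genes. For number 1, r was 0.549 (flat, concave), 0.562 (flat, convex) and 0.774 (concave, convex). For number 2 it was 0.047, 0.539 and 0.505 and for number 3 it was 0.43, 0.737 and 0.759, in the same order. Since 1 pair lay under 0.1, the set minimum, the main fit did not pair the libraries by number. The deviations include the number 3 contrast, which can make same-numbered libraries correlate without any pairing. The check therefore cannot decide whether the numbers pair the libraries. Alternatives were DESeq2 1.42.0 and its size factors, limma voom (limma 3.58.1), library size scaling, other filters and thresholds, the replicate block, and each library left out.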

Additional observations from a re-analysis of the deposited data

Results flagged for a closer look

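In 41 of 251 genes named or read for the text, 1 of the 6 libraries numbered 1 and 2 lay apart from the other 5 by more than Dixon's critical value for 6 values, a gap that chance gives in about 1 of 20 groups. The library was flat 2 in 30 genes, flat 1 in 6, concave 1 in 3 and convex 2 in 2. In 28 of its 30 genes flat 2 lay on the side away from the libraries numbered 3, and in 2 on their side. Many of the 251 genes were named for their difference in the number 3 contrast, which favours that side. No separate set of genes was examined, so the split by itself does not show where flat 2 lies in general. Values are CPM with the nearest of the other 5 in brackets.

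Flat 2 stood highest, in genes whose log2 difference in number 3 was below 0, for CHRD at 21.03 CPM (next 17.13), CRABP1 at 585.2 CPM (next 297.3), DLK1 at 1769 CPM (next 877.1), GNAS at 1325 CPM (next 1022) and IFI6 at 14.55 CPM (next 7.283). It stood highest likewise for IFIT1 at 11.6 CPM (next 8.113), LHX5 at 287.1 CPM (next 223), LINC02381 at 3.41 CPM (next 1.752), NES at 1268 CPM (next 949.5) and OTX1 at 3.684 CPM (next 1.563). The same held for PAX2 at 80.14 CPM (next 35.25), RIPPLY3 at 4.8 CPM (next 2.433), ROBO3 at 39.3 CPM (next 25.48), RTL1 at 9.726 CPM (next 5.768) and STMN4 at 4.21 CPM (next 1.736). Flat 2 was also the top library for TCEAL3 at 38.31 CPM (next 23.89), TCEAL7 at 49.58 CPM (next 31.66) and TMSB15A at 179.7 CPM (next 99.25). Flat 2 stood lowest, in genes whose log2 difference was above 0, for CXCL12 at 11.64 CPM (next 22.25), DNMT3B at 545.1 CPM (next 844.9), JARID2 at 101.4 CPM (next 180.8), KDM6A at 34.42 CPM (next 71.66) and KDR at 17.28 CPM (next 33.98). It was lowest too for MT-CO1 at 10560 CPM (next 14440), PHLDA1 at 19.45 CPM (next 30.49), POLR3G at 6.673 CPM (next 12.33), SFRP1 at 1267 CPM (next 1779) and VCL at 199.1 CPM (next 410.7). On the side of number 3, flat 2 was lowest for NOTCH3 at 170.3 CPM (next 285.8) and PDGFRB at 23.73 CPM (next 35.87).

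Flat 1 stood highest for CPLX2 at 6.699 CPM (next 3.899), CYP26A1 at 129.4 CPM (next 81.83), EPCAM at 77.67 CPM (next 54.8), HSPB8 at 12.76 CPM (next 7.695), LAD1 at 5.136 CPM (next 2.603) and LAMB3 at 1.683 CPM (next 0.9345). Concave 1 stood highest for ADM at 15.29 CPM (next 3.89), PPFIA4 at 146.4 CPM (next 48.06) and SLC2A1 at 793.5 CPM (next 345.2). Convex 2 stood highest for EGR3 at 6.307 CPM (next 2.511) and KLHL4 at 1.798 CPM (next 0.8761).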

How the results depend on the processing

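Against 3756 genes in the contrast of number 3, counts under another setting were 1445 at an adjusted p under 0.01 and 1893 with a minimum of 2-fold. They ranged from 1048 (without convex 3) to 5402 (without flat 2) with 1 library left out, among them 2331 without flat 3, 2383 without concave 3 and 2163 without convex 1. DESeq2 called 5021, limma voom 3688, DESeq2 size factors 3753, library size scaling 3940, no filter 4812 and the 1 CPM filter 3381. Number 2 against 1, with 0 genes, gave 1 with DESeq2 size factors, 108 with no filter, 154 with DESeq2 and 0 to 11 with a library left out (11 without flat 2, 1 each without flat 1 and flat 3). The interaction of shape with number 3, with 0, gave 211 with no filter, 30 with DESeq2 and 0 to 2420 with a library left out (2420 without flat 1, 1 without flat 2). Plate shape, with 0, gave 1184 with no filter, 16 with DESeq2 and 0 to 1 with a library left out (1 without flat 2). The causes of these shifts were not tested.

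With the replicate number as a block, 4137 genes were called in the contrast of number 3 and 0 by plate shape. The block thus moved neither count by over 1.5 times. By their labels the libraries share only a number, and whether it pairs them was not decided. No named gene called in the contrast of number 3 changed sign under the settings tried. Of 46 list medians under 13 settings, 71 of the values moved by more than the spread between shapes, in 24 lists. For the 251 genes, 32 values moved by more than their residual spread, in 30 genes. Depth limits the genes of few counts, such as NANOG.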

Other observations

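Long noncoding RNAs leaned to the lower side in the libraries numbered 3. Of 1612 lincRNAs tested, 92 were called higher and 243 lower, with a median log2 difference of -0.352, and of 1861 antisense RNAs 45 and 183, with a median of -0.153. Protein-coding genes gave 1484 higher and 1372 lower of 15523, with a median of 0.0295, and processed pseudogenes 30 and 11 of 1356. The strand setting of the counting is not given in the sources used here, so antisense reads cannot be told apart from those of the genes they overlap. Genes of at least 5 CPM differed also with transcript length: split by length into 5 equal classes, the median ran from -0.0693 in the shortest to 0.115 in the longest, against 0.0512 over all 11954. The part of transcript length in the results above was not tested.

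The 1080 windows of 50 neighbouring genes with at least 5 CPM were set 10 genes apart and so overlapped. Among all genes of at least 5 CPM, 9.39% were called higher and 8.08% lower. The lowest median log2 difference, -0.279, was on chromosome X from 101622797 to 111270523 (GRCh38). In that window 13 of the 50 genes were called lower and 0 higher. The window was picked as the extreme of many, and whether it exceeds chance was not tested. Its members named here were chosen after their values were seen. CAPN6, a calpain without protease activity that binds microtubules, stood at 40.3, 31.6 and 27.4 CPM against 96.6, 111 and 140.3 in the 3 libraries and the 6. COL4A6, a basement membrane collagen, stood at 80.99, 75.04 and 80.6 CPM against 94.3, 139.99 and 164, TMSB15A, a beta-thymosin with a near-identical neighbour, at 58.9, 46.03 and 37.4 CPM against 79.4, 94.5 and 179.7 and TCEAL7 at 19.7, 15.6 and 13.1 CPM against 24.5, 27.3 and 49.6. All 4 lay below the 6 in each library numbered 3. NRK, a kinase gene within the same interval that was below 5 CPM and so not counted in the window, lay on the other side, at 6.09, 4.43 and 9.89 CPM against 0.632, 1.34 and 1.94 and a log2 difference of 2.44. The highest median, 0.243, was on chromosome 6 from 8073360 to 26171349, with 9 called higher and 3 lower.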
